A study of Mus musculus with 48 samples.

Results

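A set of 10 ionotropic and metabotropic glutamate receptor genes was followed across every array of the series: the AMPA receptor subunits Gria1, Gria2, Gria3 and Gria4, the NMDA receptor subunits Grin1, Grin2b and Grin3a, the kainate receptor subunits Grik2 and Grik3, and the metabotropic receptor Grm5. Every non-control probe annotated with 1 of these 10 gene symbols was taken, which gave 20 probes of the 55681 on the array, and 10 of its 24105 named genes. A probe was reported when its signal was well above background on at least 4 of the 6 arrays of at least 1 group. This held for 19 of the 20 probes and left out the second Grin2b probe, which reached at most 3 arrays in any group. The brightest probe of a gene over all 48 arrays is called its lead probe, and the counts of genes below use it.

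The 48 samples were O4+ cells, a sort that takes up late oligodendrocyte progenitors and young oligodendrocytes, and CD11B+ microglia. Both were taken from brains of male swiss pups at postnatal day 5 (P5) or 10 (P10), with 6 samples for each cell type, age and treatment. Pups had received intraperitoneal PBS, as control, or the cytokine IL1B at 10 ng/g from P1 to P5, so that the P10 samples were collected 5 days after the last injection. Per the study's methods each sample pooled 3 brains without cerebellum and olfactory bulbs, and O4+ and CD11B+ cells came from the same animals, so 1 value describes a pool and not 1 animal. The groups are bulk sorts: fewer cells of a type and less RNA per cell cannot be told apart. All 9 progenitor and at least 9 of 10 myelin marker genes were well above background on all 6 arrays of each O4+ group, and all 10 microglial markers were so in each CD11B+ group. The O4+ arrays also carried microglial signal, since the same 10 microglial markers were well above background on every O4+ array. Likewise the CD11B+ arrays carried progenitor signal: at least 8 of the 9 progenitor markers were well above background on all 6 arrays of each CD11B+ group.

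Glutamate receptors convert extracellular glutamate into ion flux or, for the metabotropic class, into G protein signalling. AMPA receptors carry fast currents and NMDA receptors, which need the Grin1 product to form, carry slower and more calcium-permeable currents. Oligodendrocyte progenitors express receptors of all these classes and receive synaptic input from axons, and much of this equipment is known to be reduced as the cells mature into myelinating oligodendrocytes.

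Because several results below differ between probes of the same gene, the first 30 of the 60 bases of the probes that carry them are printed, with their place on the mouse genome (build mm9) as the array files give it. These are the lead probes of the genes called in an O4+ comparison and the further probes of those genes. The files place each probe within a transcript but hold no exon or UTR annotation for it, and none is given here.
Gria1, chr11:57143613-57143672, + strand: catttgatcagacactaaatatttggggta
Gria3, chrX:39031099-39031158, + strand: gcgcatatttgctctcgtctttagaaaaga
Gria3 probe 2, chrX:39007367-39007426, + strand: aagttggtggaaatctggattccaaaggct
Grin1, chr2:25146927-25146986, - strand: aagagggctgagccttctcttctgtctgca
Grin1 probe 2, chr2:25147922-25147981, - strand: tttgcaaaaccaaaaagacacagtgctgcc
Grin2b, chr6:135681653-135681712, - strand: aaggtgtttatctaaggaaggccattgaac
Grin3a, chr4:49674688-49674747, - strand: agctgccagtcattttatgaaaatgaagtg
Grin3a probe 2, chr4:49678098-49678157, - strand: gtaagcaggaagacagagcttgaggagtat
Grik2, chr10:49243534-49243593, - strand: aaatacagagaatacccaagtctcctccat
Grik2 probe 2, chr10:48819269-48819325, - strand: tagaaaatatacatcaaggggtcttaggat
Grm5, chr7:95282581-95282640, + strand: attgtataatggctctgctgcagtctgtga
Grm5 probe 2, chr7:95279335-95279394, + strand: actctcatcatcagagattacacgcagagt
Grm5 probe 3, chr7:94732759-94732818, + strand: tgttcactcactgatccaaggctagccagc
The lead probe and probe 2 of Grm5 begin at bases 7531 and 4285 of 1 listed transcript, whereas probe 3 begins at base 81 of another. The Grin1 pair and the Grin3a pair likewise belong to different listed transcripts of their gene.

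Values are log2 normalised signals. Brightness was compared between probes of 1 gene to pick its lead probe, and the signals of different genes were not ranked. Between 52.9% and 65.4% of probes were well above background on each array, and arrays of 1 group correlated with each other at 0.959 to 0.995. A probe is said to have risen or fallen when limma gave a Benjamini-Hochberg adjusted p below 0.05 over all 55681 probes and the ratio of group medians exceeded 1.5, the thresholds of the study's methods. Changes are given on the log2 scale with their standard error (SE), and folds are ratios of medians.

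The first question was how the receptors changed with normal maturation, from P5 to P10 in PBS-injected pups. In O4+ cells Grin3a, Grm5, Grin1 and Grin2b fell and Grik2 rose, while Gria2, Gria4 and Grik3 did not pass. Thus 4 of 10 genes fell, where 8.96% of all probes fell, and 1 rose, where 7.85% of all probes rose. The median change of the 10 genes was -0.55, beside 0.02 for all probes. Over the 19 reported probes, 7 fell and 1 rose. No slide and no scan day held both ages, so that age cannot be told apart from either by a within-batch value. With slide or scan day as a random block all 5 calls were kept.

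Among the AMPA receptor subunits, Gria3 and Gria1 were lower at P10 and Gria2 and Gria4 did not pass the test. Gria1, whose product is recruited to synapses during potentiation, had signals with a lowest, median and highest of 6.53, 6.71 and 7.69 at P5 and 5.80, 6.18 and 6.35 at P10. Every P10 array was below every P5 array, but the ratio of medians was 1.45 and missed the fold threshold (log2 change -0.80, SE 0.20, limma adjusted p = 0.00807). Gria3 ran from 11.18 over 11.32 to 11.51 at P5 and from 10.68 over 10.89 to 11.11 at P10. The groups did not overlap, and again the fold was short of the threshold at 1.35 (log2 change -0.45, SE 0.08, adjusted p = 0.000743). Its second probe changed by -0.31 (adjusted p = 0.00874). Gria2, the subunit that makes AMPA receptors nearly calcium-impermeable, spanned 10.30 to 10.52 at P5 and 9.58 to 10.45 at P10 (log2 change -0.18, 95% interval -0.47 to 0.11). Gria4 spanned 12.81 to 12.99 at P5 and 12.87 to 13.07 at P10 (log2 change 0.09, interval -0.02 to 0.20). The intervals of these last 2 genes keep the change of Gria2 below 1.5-fold either way and that of Gria4 close to 0.

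All 3 NMDA receptor subunits of the set fell, while Grin2c, Grin2d and Grin3b, which are outside it, were not called with age. Grin3a, whose product lowers the calcium permeability of NMDA receptors, gave a lowest, median and highest signal of 11.95, 12.04 and 12.21 at P5 and of 10.89, 11.28 and 11.62 at P10. No P10 array reached the lowest P5 array, and the fall was 1.70-fold (log2 change -0.82, SE 0.11, adjusted p = 0.00011). Its second probe fell as well, 1.57-fold (adjusted p = 0.0036). Grin1, the obligatory subunit, had signals of 8.84, 8.94 and 9.09 at P5 and of 7.93, 8.25 and 8.87 at P10. The ranges overlapped only at their edges, and the fall was 1.62-fold (log2 change -0.64, SE 0.14, adjusted p = 0.00299). The second Grin1 probe was well above background on all 6 arrays at P5 and on 0 of 6 at P10, which makes the fall at least 2.03-fold by that probe (adjusted p = 0.000356). Grin2b, a glutamate-binding subunit that prevails in the immature forebrain, had signals of 5.97, 6.21 and 6.39 at P5 and of 5.38, 5.44 and 5.91 at P10. The groups were fully apart and the fall was 1.71-fold (log2 change -0.64, SE 0.12, adjusted p = 0.00103). After normexp background correction its change was -0.29 and no longer passed the fold threshold.

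Of the kainate receptor subunits in the set, Grik2 rose and Grik3 did not pass. Grik1, a kainate receptor subunit outside the set, fell and is given below. Grik2 had signals of 7.36, 7.47 and 7.68 at P5 and of 8.12, 8.28 and 8.81 at P10, with all P10 arrays above all P5 arrays. The rise was 1.75-fold (log2 change 0.85, SE 0.11, adjusted p = 0.000111), and its second probe was higher by 0.35 without passing the fold threshold (adjusted p = 0.0273). Grik3, a low-affinity kainate receptor subunit, spanned 12.35 to 12.63 at P5 and 12.37 to 12.76 at P10 (log2 change 0.02, interval -0.14 to 0.18). Its second, dimmer probe changed by 0.57 at a ratio of medians of 1.31 (adjusted p = 0.0362), so the probes of Grik3 differed.

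Grm5 encodes the Gq-coupled receptor mGluR5, the main group I metabotropic receptor of oligodendrocyte progenitors. Its lead probe gave 11.52, 11.71 and 11.90 at P5 and 10.76, 11.06 and 11.40 at P10, with no overlap. The fall was 1.57-fold (log2 change -0.65, SE 0.11, adjusted p = 0.000634). Probe 2 fell by -0.61 (adjusted p = 0.00055), whereas probe 3, near the start of its transcript, changed by 0.14 (interval -0.13 to 0.42). The fold of the lead probe lay near the threshold: the call was lost when arrays were scaled to the 75th percentile or taken from the deposited matrix (both -0.49), or without replicate 2, 5 or 6 of the P10 PBS group, and the change ranged from -0.72 to -0.59 over all single omissions.

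**Figure D1:**
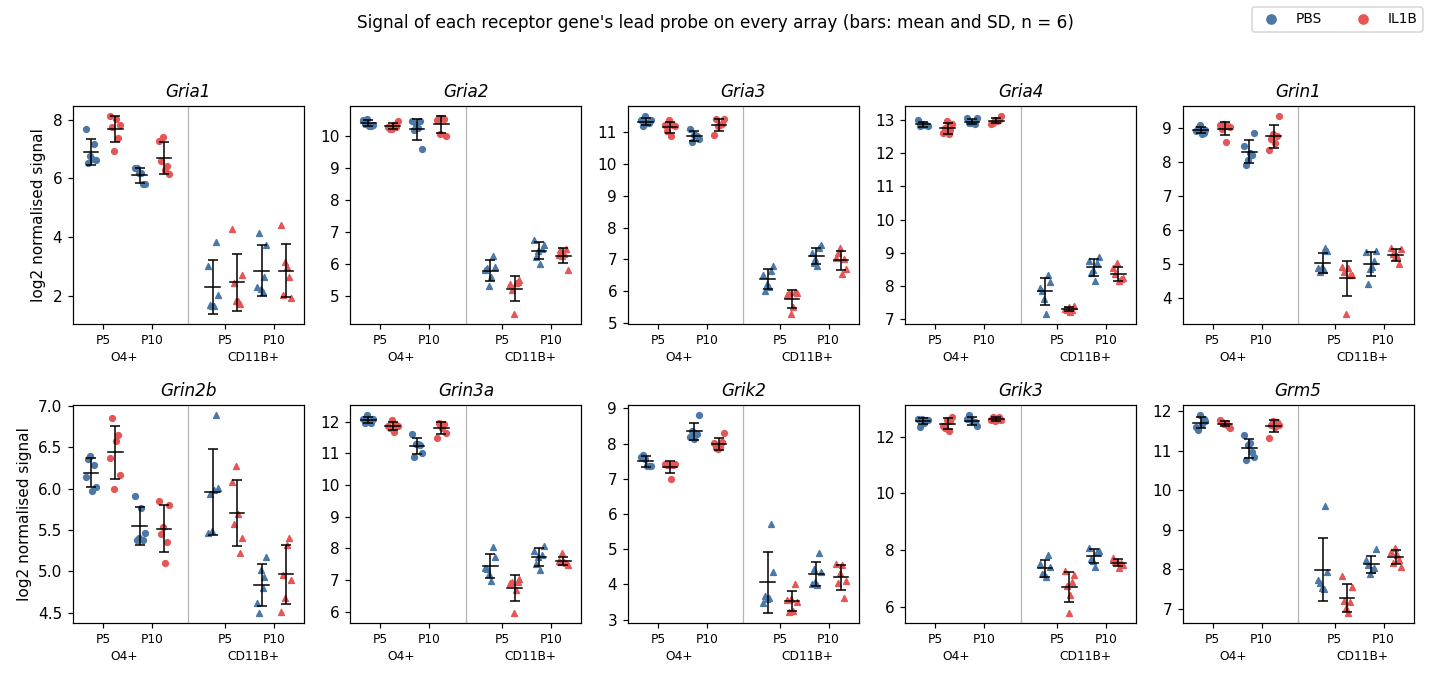
Log2 normalised signal of the lead probe of each receptor gene (y axis) on every array, grouped by age along the x axis with O4+ cells (circles) on the left and CD11B+ cells (triangles) on the right of each panel, PBS in blue and IL1B in red, with bars for the mean and SD of 6 arrays. The O4+ signal of Grin3a and Grm5 was lowest in the P10 PBS group, that of Grik2 was highest there, and Grik3 and Gria4 lay within narrow ranges in all 4 O4+ groups; O4+ and CD11B+ arrays were normalised separately.

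The second question was what IL1B did to the receptors at P5, right after the injections. In O4+ cells Gria1 alone passed, as 1 of 10 genes higher (3.43% of all probes) and 0 lower (1.49% of all probes). The median change of the 10 genes was -0.09, beside -0.04 for all probes. Gria1 had signals of 6.53, 6.71 and 7.69 in the PBS group and of 6.95, 7.79 and 8.13 in the IL1B group. The groups overlapped, the rise was 2.12-fold, and the adjusted p was close to the threshold (log2 change 0.77, SE 0.24, interval 0.24 to 1.30, adjusted p = 0.0464). The change was positive under each of 13 alternatives, at 0.49 to 1.06, and the call was kept under 9 of them. Leaving out single arrays kept the call in only 2 of 12 fits, those without IL1B replicate 3 or PBS replicate 1, with changes of 0.68 to 0.93 and adjusted p of 0.0134 to 0.0964. Within slides the difference was 0.75 on slide 1 (1 IL1B array against 4 PBS arrays) and 1.44 on slide 4 (1 against 2), and with slide as a block the adjusted p was 0.109. On scan day 2 it was 0.97 (5 against 2), and with scan day as a block the adjusted p was 0.0647.

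The other receptors differed little at P5. Their lead probes changed by between -0.19 for Grin3a and 0.24 for Grin2b, and no interval went past 0.56. For Grin3a the values were 11.66, 11.86 and 12.04 with IL1B, overlapping the PBS range given above (adjusted p = 0.0656). Its second probe was lower on every IL1B array than on every PBS array, with a change of -0.40 at 1.24-fold (adjusted p = 0.00808), which the fold threshold kept from being a call. Grm5 was level at -0.02 (interval -0.16 to 0.12). The microglial marker signal moved with IL1B in the same arrays: the mean log2 signal of the 10 marker genes was 12.97 to 13.61 per PBS array and 14.30 to 14.74 per IL1B array. Of the 10 genes 8 rose. Of 6 endothelial markers 4 fell (median -0.80). The part of either in the Gria1 result was not tested. In the CD11B+ cells themselves the Gria1 probe was well above background on 0 of 6 P5 PBS arrays and on 1 of 6 P5 IL1B arrays.

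The next question was how the receptors stood at P10, 5 days after the last injection. In O4+ cells Grm5 rose, and Grin3a and Gria3 were higher without reaching the fold threshold. Of the 10 genes 1 rose (2.49% of all probes), 0 fell (1.42% of all probes) and 8 had a change above 0. The median change was 0.25, beside -0.02 for all probes. Grm5 had signals of 11.33, 11.65 and 11.74 with IL1B, against 10.76, 11.06 and 11.40 with PBS, so that only the lowest IL1B array fell inside the PBS range. The rise was 1.51-fold (log2 change 0.57, SE 0.11, interval 0.32 to 0.81, adjusted p = 0.0101), and probe 2 rose 1.57-fold (log2 change 0.61, adjusted p = 0.0193). Probe 3 again did not follow, at -0.18 (interval -0.42 to 0.06).

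The Grm5 change was positive under each of 13 alternatives (0.48 to 0.60), but its fold stood at the threshold and the call was kept under 7. Leaving out replicate 2, 5 or 6 of the PBS group also ended the call, with changes of 0.51 to 0.64 over all 12 omissions. Within slide 5 the difference was 0.40 (2 IL1B arrays against 5 PBS arrays), within slide 9 it was 0.81 (1 against 1) and on scan day 3 it was 0.52 (5 against 5); with slide as a block the change was 0.50 (adjusted p = 0.0615).

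Grin3a gave 11.49, 11.86 and 11.97 with IL1B against 10.89, 11.28 and 11.62 with PBS, a ratio of medians of 1.49 (log2 change 0.56, SE 0.13, interval 0.29 to 0.83, adjusted p = 0.0168). It passed the call when all 48 arrays were normalised together. Its second probe changed by 0.20 (adjusted p = 0.516). Gria3 gave 10.91, 11.23 and 11.42 against 10.68, 10.89 and 11.11, with a ratio of 1.27 (log2 change 0.35, SE 0.10, adjusted p = 0.0375). Gria3, Grin3a and Grm5 were thus each shifted up with overlapping groups. The remaining genes had adjusted p above 0.05. Gria1 differed by 0.58 (interval 0.08 to 1.08, adjusted p = 0.139), Grin1 by 0.45 (interval 0.05 to 0.86, adjusted p = 0.158) and Grik2 by -0.35 (interval -0.61 to -0.09, adjusted p = 0.085). The second Grin1 probe was well above background on 5 of 6 IL1B arrays and on 0 of 6 PBS arrays, at least 1.44-fold higher by that bound, with an adjusted p of 0.0617.

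**Figure D2:**
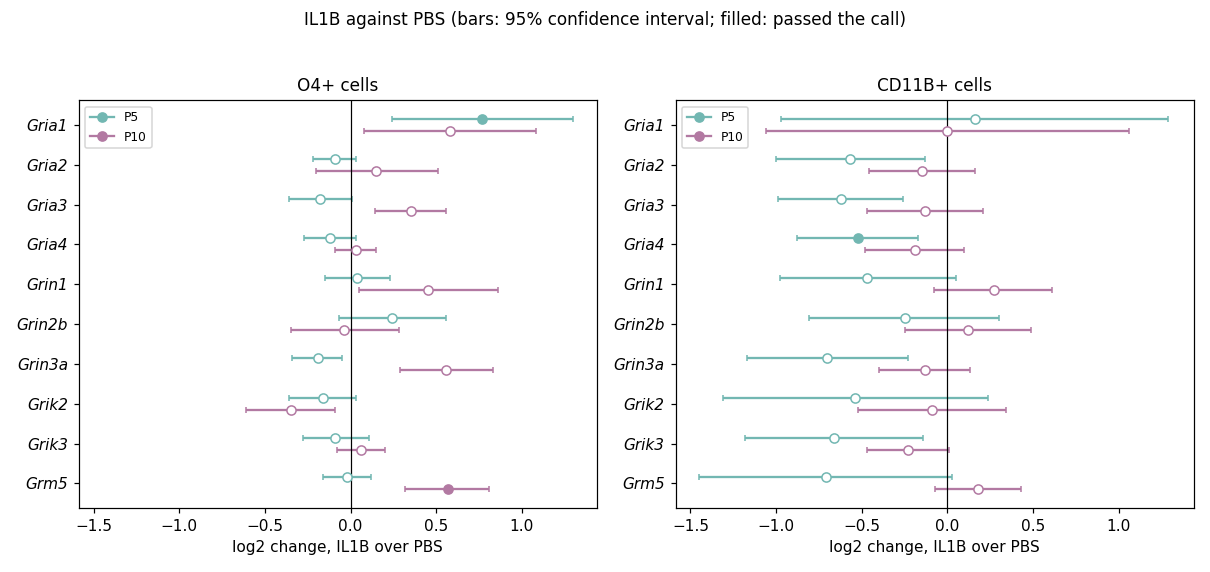
Log2 change of the lead probe of each receptor gene (y axis) from PBS to IL1B in O4+ (left) and CD11B+ cells (right) at P5 and P10, with 95% confidence intervals and filled points for changes that passed the call. In O4+ cells only Gria1 at P5 (0.77) and Grm5 at P10 (0.57) were called, and in CD11B+ cells only Gria4 at P5 (-0.52).

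Set side by side, the changes with age and those with IL1B at P10 ran opposite ways for several receptors: -0.82 and 0.56 for Grin3a, -0.65 and 0.57 for Grm5, -0.64 and 0.45 for Grin1, -0.45 and 0.35 for Gria3, and 0.85 and -0.35 for Grik2. Both comparisons use the same 6 P10 PBS samples, with opposite signs, so the 2 values of a gene are not independent, and a low or high P10 PBS group by itself gives opposite signs. The median of Grin3a was 12.04 and 11.86 in P5 PBS and P5 IL1B samples and 11.28 and 11.86 in P10 PBS and P10 IL1B samples. That of Grm5 was 11.71, 11.69, 11.06 and 11.65 in the same order. Grin2b had medians of 6.21 and 6.48 at P5 and of 5.44 and 5.50 at P10, and its IL1B change at P10 was -0.04 (interval -0.35 to 0.28).

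Whether the response to IL1B differed between the ages was tested as an interaction over the 24 O4+ arrays. Grin3a, Grm5 and Gria3 passed, all with a more positive response at P10, so 3 of 10 genes against 7.83% of all probes were called higher and 0 lower (5.32% of all probes). The difference was 0.75 for Grin3a (SE 0.14, interval 0.45 to 1.05, adjusted p = 0.00123), 0.59 for Grm5 (SE 0.13, interval 0.31 to 0.86, adjusted p = 0.00446) and 0.53 for Gria3 (SE 0.13, interval 0.26 to 0.80, adjusted p = 0.00803). Their second probes gave 0.60, 0.66 and 0.50 with adjusted p of 0.0396, 0.00849 and 0.00841, and Grm5 probe 3 gave -0.22. For Grin1 the lead probe differed by 0.41 (adjusted p = 0.229). Its second probe passed as more positive at P10 (adjusted p = 0.0425). That probe was well above background on 0 of 6 P10 PBS arrays, so no size is given. For Gria1 the response did not differ detectably between ages (-0.19, interval -0.90 to 0.52). The 3 calls held in all 24 fits that left out 1 array and with scan day as a block. With slide as a block Grin3a kept its call (0.74, adjusted p = 0.027), while Gria3 (0.60, adjusted p = 0.0539) and Grm5 (0.48, adjusted p = 0.116) lost theirs.

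**Figure D3:**
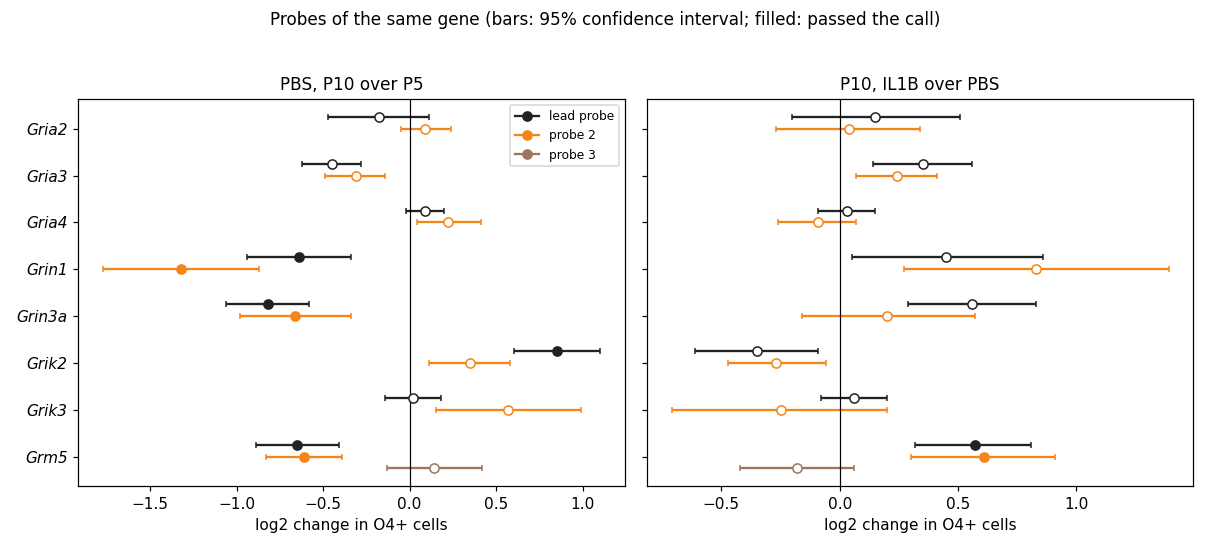
Log2 change (x axis) of each reported probe of the receptor genes with more than 1 such probe in O4+ cells, from P5 to P10 in PBS samples (left) and from PBS to IL1B at P10 (right), with 95% confidence intervals and filled points for called changes. The first 2 probes of Grm5 moved together in both panels (-0.65 and -0.61, then 0.57 and 0.61), while probe 3 was at 0.14 and -0.18.

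Marker genes of other cells and stages moved in the same O4+ arrays, and their part in the receptor changes was not tested. Of all probes 7.85% rose and 8.96% fell with age, and 2.49% rose and 1.42% fell with IL1B at P10. From P5 to P10 in PBS samples 9 of 10 myelin genes rose (median change 2.80), 3 of 9 progenitor genes fell (median -0.43), 9 of 10 microglial genes fell (median -1.23) and 4 of 6 endothelial genes fell (median -1.01). Of 12 neuronal genes 4 fell and 2 were called higher (median -0.51), the latter counting Slc17a7, which was well above background on no array. Over the 11 neuronal genes with a reported probe the median was -0.57. The mean of the 12 genes per array was 9.22 to 9.51 at P5 and 8.99 to 9.34 at P10. With IL1B at P10, 5 of 10 myelin genes fell (median -0.52), 2 of 9 progenitor genes rose (median 0.34), 5 of 10 microglial genes rose (median 0.57), 2 of 6 astrocyte genes rose (median 0.50) and 3 of 12 neuronal genes rose (median 0.14). The mean of the progenitor list per array was 14.76 to 14.97 in P5 PBS, 14.19 to 14.58 in P10 PBS and 14.50 to 15.00 in P10 IL1B samples. That of the microglial list was 12.04 to 12.78 in P10 PBS and 12.48 to 13.15 in P10 IL1B samples. All of these markers except the neuronal gene Slc17a7, which was above background on no array, were detected in O4+ samples.

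The signals of Grin3a, Grm5 and Gria3 also moved together from array to array. Over the 24 O4+ arrays the Pearson correlation was 0.93 for Grin3a with Grm5, 0.90 for Gria3 with Grin3a and 0.82 for Gria3 with Grm5. After each group's mean was taken away it was 0.77, 0.81 and 0.62, so the likeness was not only one of group means. Grik2 ran opposite to Grm5 (-0.76), Grin3a (-0.74) and Gria1 (-0.77), and these values shrank to -0.41, -0.27 and -0.29 within groups. The arrays share RNA quality, labelling and slides, so these values describe the arrays and carry no test.

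**Figure D4:**
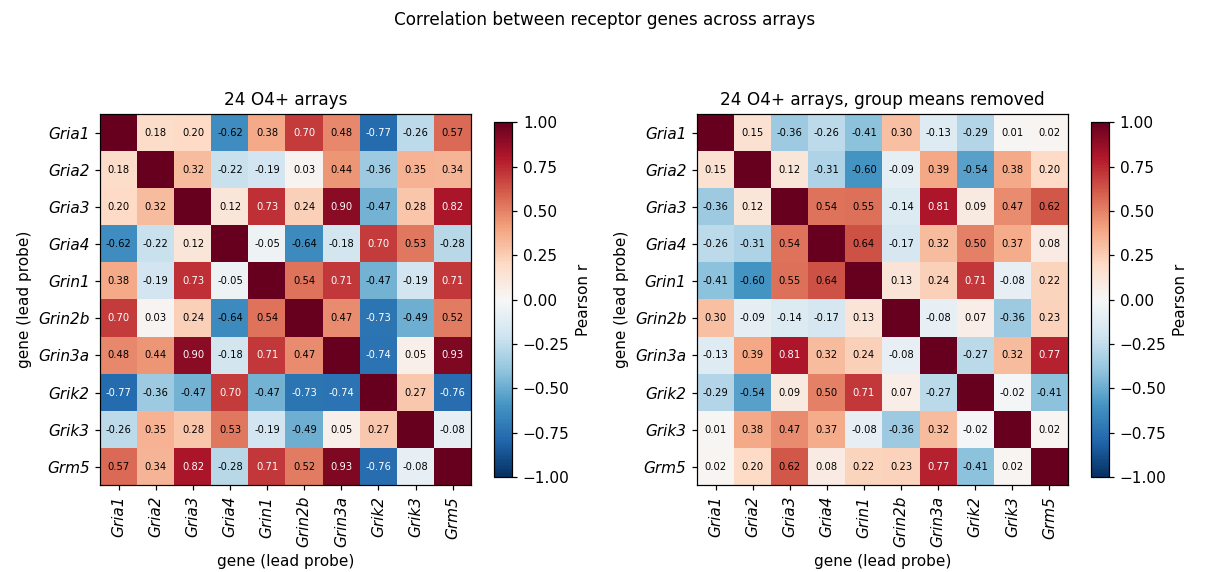
Pearson correlation between the lead probes of the 10 receptor genes (both axes) over the 24 O4+ arrays, as measured (left) and after the mean of each group was removed (right), with red for positive and blue for negative values. Gria3, Grin3a and Grm5 formed the most tightly correlated trio in both panels (0.82 to 0.93 and 0.62 to 0.81), whereas the negative values of Grik2 with Grin3a, Grm5 and Gria1 were smaller on the right.

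Among 21036 probes of named genes detected on all 24 O4+ arrays, the 3 most like Grin3a included Gsx1 (r = 0.979) and Sall2 (0.975). Those most like Grm5 were Gfra2 (0.964), Gas1 (0.962) and Smpd3 (0.958), and those most like Gria3 were Rab9b (0.96), Ppm1e (0.952) and Srsf12 (0.94). Gria1 was nearest to Parp9 (0.882), Psme2 (0.88) and Rassf2 (0.877), of which Psme2 encodes an interferon-inducible proteasome activator subunit. Grik2 was nearest to Surf1 (0.979), Jmy (0.979) and Pcdh7 (0.978), and Grin1 to Dos (0.982), Spnb3 (0.968) and Pip4k2b (0.96). The closest gene to each other member was Foxk2 for Gria2 (0.885), 2900011O08Rik for Gria4 (0.906), Fabp3 for Grin2b (0.897) and Extl2 for Grik3 (0.792). Grik3 thus had the weakest likeness of the 10, over a signal range of 12.20 to 12.76.

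On the CD11B+ arrays the receptor signals were low, and the PBS samples of both cell types show by how much. On the scale of all 48 arrays 9 of the 10 genes were higher in O4+ than in CD11B+ cells at P5 (19.8% of all probes) and at P10 (22.2% of all probes), with 0 lower (21.8% and 20.2%). All 9 had every O4+ array above every CD11B+ array at both ages, as did 20.6% of all probes at P5 and 21.8% at P10. The median difference of the 10 genes was 4.20 at P5, or 3.81 with Gria1 at its lower bound, and 3.27 at P10. After normexp background correction, which added an offset of 50 to each signal, it was 3.21 and 2.60. The same median difference was 4.68 at P5 and 3.51 at P10 for the 9 progenitor genes. For the 12 neuronal genes it was 2.13 and 2.08. The part of such cells in the CD11B+ receptor signals was not tested. Grik3 differed by 4.91 at P5 (32.3-fold) and 4.51 at P10, and Gria4 by 4.78 (26.0-fold) and 4.18. Grin3a differed by 4.31 and 3.17, Grm5 by 3.43 and 2.61, and Grik2 by 2.94 and 3.57. The Grik2 probe was well above background on 2 of 6 CD11B+ PBS arrays at P5 and on 5 of 6 at P10, and its P5 difference was 1.37 after normexp. Gria1 was at least 6.91-fold higher in O4+ cells at P5, since no CD11B+ PBS array was well above background there, and its difference after normexp was 1.18.

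Grin2b was the exception. Its signal spanned 5.70 to 6.12 in O4+ and 5.73 to 7.15 in CD11B+ cells at P5, and 5.12 to 5.65 and 4.75 to 5.44 at P10. The difference was -0.30 at P5 (interval -0.76 to 0.16) and 0.20 at P10 (interval -0.10 to 0.50). Grm5 probe 3 behaved likewise, with differences of -0.54 (interval -1.24 to 0.16) and 0.41 (interval 0.09 to 0.74), where the other 2 Grm5 probes differed by 2.61 to 3.43. Within scan day 2 at P5 (2 O4+ arrays against 5 CD11B+ arrays) and scan day 3 at P10 (5 against 6), Grin3a differed by 4.54 and 3.22 and Gria4 by 4.86 and 4.15. At P5 the 2 genes differed by 3.65 and 4.32 within scan day 1 (4 against 1) and by 4.15 and 4.47 within slide 4 (2 against 1). Differences of other genes varied more: Grm5 differed by 1.83 within scan day 1 and 3.86 within scan day 2, and Grik2 by 1.26 and 3.25.

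With age, Gria3 and Gria4 rose and Grin2b fell in CD11B+ cells of PBS pups, which is 2 of 10 genes higher (4.65% of all probes) and 1 lower (3.61% of all probes). The median change of the 10 was 0.36, beside 0 for all probes. Gria3 went from 6.00, 6.37 and 6.79 to 6.79, 7.09 and 7.44, a 1.65-fold rise (log2 change 0.73, SE 0.16, adjusted p = 0.00648), and its second probe rose to the same ratio. Gria4 went from 7.17, 7.89 and 8.32 to 8.16, 8.58 and 8.88, a 1.62-fold rise (log2 change 0.72, SE 0.19, adjusted p = 0.0177), while its second probe changed by 0.35 (interval -0.07 to 0.77, adjusted p = 0.255). Grin2b went from 5.46, 5.96 and 6.89 to 4.50, 4.86 and 5.18, a 2.14-fold fall with no overlap (log2 change -1.12, SE 0.22, adjusted p = 0.00366). The Gria3 call was lost without P5 replicate 2, 3 or 4 (change 0.65 at the lowest) and the Gria4 call without P10 replicate 1, 5 or 6 (0.59 at the lowest). Replicate 5 of the P5 PBS group stood apart in its astrocyte markers, whose mean was 10.64 against 8.04 to 8.76 on the other 5 arrays. Without it the changes were 0.78, 0.82 and -0.94 for Gria3, Gria4 and Grin2b, and Gria2 (0.71, adjusted p = 0.00557) and Grik3 (0.53, adjusted p = 0.0134) passed as well. No slide or scan day held both ages, and slide as a random block ended the Gria4 call. With scan day as a random block only Grin2b kept its call (adjusted p was 0.162 for Gria3 and 0.287 for Gria4). Oligodendrocyte-lineage markers moved in the same CD11B+ arrays: 4 of 9 progenitor genes rose (median 0.50) and 9 of 10 myelin genes rose (median 2.31), while 5 of 6 endothelial genes fell (median -0.98). Of 12 neuronal genes 3 fell and 1 was called higher (median -0.26). Of 6 astrocyte genes 1 fell (median -0.18), and of 10 microglial genes 3 rose (median 0.21). The part of these lists in the changes of Gria3, Gria4 and Grin2b was not tested.

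With IL1B at P5, 9 of the 10 receptor genes had a change below 0 in CD11B+ cells (median -0.55, beside -0.01 for all probes), but only Gria4 passed as lower (5.25% of all probes) and 0 as higher (4.05%). Gria4 had signals of 7.17, 7.89 and 8.32 with PBS and of 7.23, 7.30 and 7.41 with IL1B, so the IL1B values lay inside the PBS range. The fall was 1.51-fold (log2 change -0.52, SE 0.16, adjusted p = 0.0389). Its call was kept in only 2 of 12 single omissions, those without PBS replicate 3 or 4, with changes of -0.66 to -0.43, the latter without PBS replicate 5. Under slide and scan day blocks the adjusted p was 0.0907 and 0.109. Within slide 4 the difference was -0.83 (4 IL1B arrays against 1 PBS array), and on scan day 2 it was -0.44 (4 against 5). Its second probe was also called lower (adjusted p = 0.0194), but it was well above background on only 3 of 6 IL1B arrays against 6 of 6 PBS arrays, so no fold is given. Gria3 differed by -0.62 with no overlap between groups (adjusted p = 0.0188) and Grin3a by -0.70 (adjusted p = 0.0383), both short of the fold threshold at 1.38 and 1.36. In the same arrays 3 of 9 progenitor markers fell (median -0.74) and their mean per array was 9.76 to 10.81 with PBS and 8.78 to 9.70 with IL1B. Of 6 endothelial markers 4 fell (median -0.91), with a mean per array of at least 9.82 with PBS and at most 9.60 with IL1B. The part of either list was not tested.

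At P10 no receptor gene differed between IL1B and PBS in CD11B+ cells by limma (0 higher beside 1.09% and 0 lower beside 1.08% of all probes), 0 had an unadjusted p below 0.05, and the methods' t-test also called 0. The 10 changes had a median of -0.11. The second Grm5 probe was the only reported probe called, higher by 0.62 (1.64-fold, adjusted p = 0.0342), while the lead Grm5 probe differed by 0.18 (interval -0.07 to 0.43).

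**Figure D5:**
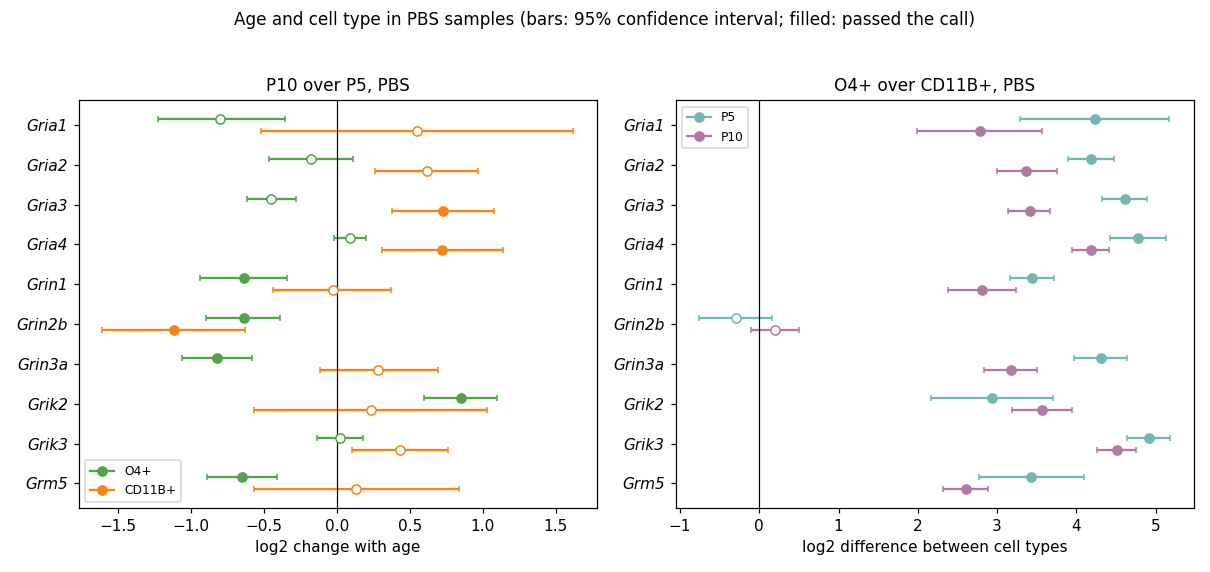
Left, log2 change of each lead probe from P5 to P10 in PBS samples of O4+ and CD11B+ cells, and right, log2 difference between O4+ and CD11B+ cells in PBS samples at P5 and P10, with 95% confidence intervals and filled points for called values. Gria3 changed by -0.45 with age in O4+ and by 0.73 in CD11B+ cells, Grin2b fell in both (-0.64 and -1.12), and every gene except Grin2b was higher in O4+ cells at both ages.

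Further ionotropic and metabotropic receptor genes were examined as a list of 16. In O4+ cells 0 changed with IL1B at P5 (median -0.06), where 3.43% of all probes rose and 1.49% fell. With IL1B at P10, 1 rose (2.49% of all probes) and 0 fell (1.42%), with a median of 0.10. The gene that rose was Grin2d, an NMDA receptor subunit (log2 change 0.65, 1.55-fold, adjusted p = 0.0251). With age 1 rose (7.85% of all probes) and 2 fell (8.96%), with a median of -0.06. Grm8, a group III metabotropic receptor that inhibits adenylyl cyclase, rose (log2 change 0.99, adjusted p = 0.000338), and the kainate receptor subunit Grik1 fell (-0.97, adjusted p = 0.000827). The Grm8 probe was well above background on only 19 of all 48 arrays and not on every O4+ P5 PBS array. The second Grik1 probe fell with age by -1.14 (adjusted p = 1.43e-05) and rose with IL1B at P10 by 0.73 (adjusted p = 0.0198). The other gene called lower, Grin2a, was well above background on no array of either PBS group, so no change is read from it. The interaction called 5 higher (7.83% of all probes), namely Grin2a (1.16), Grin2d (0.77), Grik1 (0.70), Grik4 (0.34) and Grik5 (0.32). It called 1 lower (5.32% of all probes), Grm2 (-0.51). However, the Grin2a probe was well above background on only 4 of all 48 arrays.

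Of 28 auxiliary subunits and scaffolds, 0 changed with IL1B at P5 (median -0.11), where 3.43% of all probes rose and 1.49% fell. At P10 with IL1B 5 rose (2.49% of all probes) and 0 fell (1.42%), with a median of 0.15. Those that rose were Grip2, Neto2, Shisa6, Shisa7 and Neto1. Grip2, a PDZ scaffold of AMPA receptors, was at least 1.39-fold higher (adjusted p = 0.04) because no PBS array was well above background. Neto2, an auxiliary subunit of kainate receptors, rose by 0.63 (adjusted p = 0.00699) and Shisa6, an AMPA receptor auxiliary protein, by 0.59 (adjusted p = 0.0146). With age 2 rose (7.85% of all probes) and 7 fell (8.96%), with a median of -0.26. The largest changes were those of Shisa6 (-1.22, adjusted p = 7.36e-06), Homer3, a scaffold of group I metabotropic receptors (1.02, adjusted p = 2.87e-05), and Shisa7, called lower (adjusted p = 1.75e-05). The age and P10 IL1B comparisons again share the P10 PBS samples. The interaction called 9 of the 28 higher (7.83% of all probes) and 0 lower (5.32%), with Neto2 (0.76), Neto1 (0.72) and Cacng8 (0.65) leading.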

How the data were processed

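Per the labels, total RNA of each sample was amplified, labelled with Cy3 and hybridised to a 1-colour Agilent 8x60K array, and the authors deposited the Feature Extraction 10.7.3.1 output of each array. The processed intensity in these deposited files is background-subtracted and detrended within the array. The deposited matrix holds, by comparison with the scanner values, the ratio of that signal to the array median on a linear scale; it served as an alternative. The label protocol places the P5 collection 2 h after the last injection and names the strain swiss, while the methods differ on both points. A P10 sample was taken as P10 from its title and stage.

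The log2 processed intensity of 59305 non-control spots (278 non-uniform spot readings left out, 0 saturated, no pseudocount) was quantile-normalised within each cell type (24 arrays), or over all 48 where O4+ and CD11B+ cells were compared, and the spots of each of the 55681 probes were averaged. Tests of 6 arrays against 6 used limma 3.58.1 (R 4.3.3), in place of the equal-variance test of the methods, with Benjamini-Hochberg adjustment over all probes, and the interaction was fitted over the 24 O4+ arrays without a fold threshold. Well above background is the flag that Feature Extraction sets for each spot in the deposited files. An "at least" fold sets the brighter group's mean against the lowest signal among probes well above background on each array of the dimmer group, or the probe's own signal where higher. The script was tested on simulated data. The labels number the replicates but do not say that they were separate litters, so p-values measure the spread between these pools. The number of arrays limits the precision.

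All 10 receptor genes are named; of each further list the called genes with the largest changes in O4+ comparisons are named, at most 3, and the 3 genes most correlated with a member. Results for some genes of these lists are left out of the text. The members and lists were chosen with earlier results of these data known. Alternatives covered the normalisation, background correction, deposited matrix values, a filter on dim probes, the methods' t-test, the fold rule, the arrays in the fit, slide, scan day and replicate number as blocks, another lead probe and the omission of each array in turn.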

Additional observations from a re-analysis of the deposited data

Results flagged for a closer look

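In 11 of 80 gene and group combinations the highest or lowest of the 6 arrays stood apart, with a gap to its neighbour, as a share of the group's range, beyond the 95% limit of Dixon's test. Chance gives about 1 in 20 such groups. In O4+ cells the share of the range was 0.681 for Gria2 on P10 PBS replicate 6 (log2 signal 9.58, lowest), 0.703 for Grin1 on P5 IL1B replicate 4 (8.60, lowest) and 0.895 for Grik2 on the same array (6.99, lowest). It was 0.635 for Grik2 on P10 PBS replicate 6 (8.81, highest) and 0.685 for Grm5 on P10 IL1B replicate 1 (11.33, lowest).

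In CD11B+ cells replicate 3 of the P5 IL1B group was lowest for Gria2 (4.46, share 0.721), Grin1 (3.53, share 0.823) and Grin3a (5.97, share 0.659). The share was 0.661 for Gria2 on P10 IL1B replicate 6 (5.81, lowest) and 0.631 for Grin3a on P10 IL1B replicate 3 (7.86, highest). Grm5 was highest on P5 PBS replicate 5 (9.59, share 0.793), where the mean of the astrocyte marker list was also the highest of its group (10.64, beside 8.04 to 8.76 on the other arrays).

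The O4+ response to IL1B differed between P10 and P5 by 0.53 for Gria3, 0.75 for Grin3a and 0.59 for Grm5 on the log2 scale (interaction term of limma).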

How the results depend on the processing

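None of the receptor genes that passed a test changed direction under any alternative or omission, and the calls of O4+ against CD11B+ cells stayed at 9 throughout. The single call for IL1B in O4+ cells at P5 became 0 under the methods' t-test, slide as a block, scan day as a block and the replicate block, and was 0 to 1 when arrays were left out in turn. At P10 it became 0 under scaling to the 75th percentile, normexp, the deposited matrix values, the ratio of means, slide as a block and the replicate block, 2 with 48 arrays normalised together, 3 with no fold threshold, and 0 to 2 with arrays left out. For IL1B in CD11B+ cells at P5 the call became 0 under the 75th percentile, normexp, 48 arrays together, the methods' t-test, slide, scan day and the replicate block, 2 under the ratio of means (Gria3 and Grin3a, with Gria4 lost), 3 with no fold threshold, and 0 to 2 with arrays left out. The 3 age calls in CD11B+ cells became 0 under normexp and 1 with scan day as a random block, and were 2 to 5 with arrays left out, 5 of them without P5 PBS replicate 5 or P10 PBS replicate 4. The 3 interaction calls became 1 with slide as a block. Beyond what a setting does by construction, the cause was not tested. A fold rule left out admits more genes. The normexp alternative added an offset of 50 to each signal before log2, which makes the changes of dim probes smaller. Same-numbered samples of 2 groups correlated at -0.08 to 0.48. In no comparison did all pairs exceed 0.1, so the numbers were not taken as pairs. Of 6 arrays, 1 to 5 correlated best with their own number. The most were in the O4+ against CD11B+ comparisons, whose cells came from the same animals per the methods. They were 4 at P5 (same-number r 0.02 to 0.13) and 5 at P10 (0.03 to 0.15). The replicate block changed no other count of receptor calls. Among all probes the calls at P5 and P10 with IL1B in O4+ cells were 2739 and 2173, 1378 and 984 after normexp and 10176 and 6036 without a fold threshold. With slide as a block they were 1812 at P5, and at P10 3605 under the 75th percentile. With age in O4+ cells there were 9362, 4801 after normexp and 18942 without the fold threshold. In CD11B+ cells at P5 there were 5178, then 2626, 12016 and, with slide as a block, 2283. At P10 there were 1209, 3621 without the fold threshold, 2 with slide, 772 with scan day and 785 with the replicate block as a term. With age in CD11B+ cells there were 4600, then 2117 after normexp, 11861 without the fold threshold and 2266 with scan day as a random block. Between cell types at P5 there were 23178 and, after normexp, 15083. The interaction gave 7322 and, with slide as a block, 3901. Signals near background, such as Gria1 in CD11B+ cells and the second Grin1 probe at P10, give bounds only.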

Other observations

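Genes of glutamate transport, metabolism and RNA editing were looked at as a list of 12. In O4+ cells with IL1B at P5, 1 rose (3.43% of all probes) and 0 fell (1.49%), with a median change of 0.09. It was Glul, the glutamine synthetase gene (log2 change 0.55, 1.51-fold, adjusted p = 0.00148, every IL1B array above every PBS array). At P10, 2 rose (2.49% of all probes) and 0 fell (1.42%), with a median of 0.20. The glial glutamate transporter gene Slc1a3 rose by 0.57 (adjusted p = 0.0321), and Slc7a11, the cystine-glutamate antiporter gene, was at least 1.12-fold higher, well above background on 5 IL1B and 0 PBS arrays (adjusted p = 0.038). From P5 to P10 in PBS samples Slc7a11 was at least 1.75-fold lower (adjusted p = 0.00343), Slc1a3 fell by 0.84 (adjusted p = 0.000189) and the transporter gene Slc1a1 rose by 0.73 (adjusted p = 6.5e-06). Slc17a7 was called higher but was well above background on no array. The interaction called Adarb1, the gene of an RNA-editing adenosine deaminase that acts on Gria2 transcripts (0.56, adjusted p = 0.000172), and Glud1 higher and Glul lower (-0.48).

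In CD11B+ cells with IL1B at P5, Adarb1 fell by 0.78 (adjusted p = 0.0015) and Slc1a1 fell by 0.81 (adjusted p = 0.0289), and with age in PBS samples Slc1a1 rose by 1.20 (adjusted p = 0.000178). Of the other 16 receptor genes, Grm6 was higher with IL1B at P5, at least 1.33-fold, on 5 of 6 IL1B arrays against 0 of 6 PBS arrays above background (adjusted p = 0.00552), and Grik1 fell by 0.78 (adjusted p = 0.0174). Of the 28 auxiliary subunits and scaffolds, Shank3 fell at P5 with IL1B (-0.80, adjusted p = 0.0109). With age Dlg2 rose (0.96, adjusted p = 8.89e-05) and Shank2 fell (-1.31, adjusted p = 0.0455). These genes were named after their values were seen.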
